A study of Mus musculus with 9 samples.

Results

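The genes described here set or mark the epithelial and the mesenchymal state of cells: Grhl1, Grhl2, Grhl3, Cdh1, Epcam and Esrp1 on the epithelial side and Zeb1, Zeb2, Snai2 and Vim on the mesenchymal side. A peak was taken as a member when its summit lay nearest to a start site of a listed gene, among all protein-coding transcripts of the mm9 annotation, and within 500 kb of it. By this rule 286 of the 286921 peaks in 9 lists were members, 202 near the 6 epithelial genes and 84 near the 4 mesenchymal genes. Merging peaks that lay within 100 bp of each other across the lists gave 67 regions of 69354, of which 45 belonged to epithelial and 22 to mesenchymal genes. The distance limit mattered for Zeb2 alone: its farthest regions inside the limit lay 483 and 464 kb before a start site, with peaks in 2 and 3 Sox2-EGFP- lists and no Sox2-EGFPhigh+ list. The nearest regions outside it, 512 and 543 kb before the gene, had peaks in 2 and 5 Sox2-EGFPhigh+ lists and no Sox2-EGFP- list.

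Epithelial cells are held together by E-cadherin junctions and keep an apical and a basal side, and the cochlear duct, including the prosensory domain that gives rise to hair cells and support cells, is such an epithelium. Grainyhead-like (Grhl) factors bind and open enhancers of junction genes, while Zeb and Snai factors bind E-box sequences and repress many of the same genes, Cdh1 among them. Grhl2 and Zeb1 are known to repress each other, and the miR-200 microRNAs, which are transcribed in epithelia, target the messages of Zeb1 and Zeb2.

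Accessible DNA was mapped with ATAC-seq, where a transposase inserts sequencing adapters into chromatin that is open, in cells sorted from the cochlear ducts of mouse embryos of the strain B6;129S-Sox2tm2Hoch/J, whose Sox2 gene carries a knocked-in EGFP. All samples came from EGFP-positive embryos, so the Sox2-EGFP- cells carry the knock-in too. Sox2-EGFPhigh+ cells, the brightest peak of the sort, gave 2 samples each at E12, E14.5 and E16. Sox2-EGFP- cells, the dimmest peak, gave 1 sample at E14.5 and 2 at E16, and cells of low EGFP were excluded. Each Sox2-EGFPhigh+ replicate was a pool of ducts from a single litter, dissected away from mesenchyme and from the cochlear nerve. The EGFP reports Sox2, which glia also express, and the Sox2-EGFP- gate can hold any other cell left with the duct.

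Each sample had its own list of peaks with a fold enrichment over local background and a −log10 p. The lists held 7577 and 13817 peaks at E12, between 22962 and 66332 in the 4 later Sox2-EGFPhigh+ samples and between 23302 and 23899 in the Sox2-EGFP- samples, and they carry no reads. The sample descriptions of the study give libraries that differ widely in read number and in the share of reads in peaks; these values are not used here. A peak stands in a list only where another sample of the same cell type had it, so agreement within a type is built in. Samples were grouped by title. The cell type tags of 3 of the 4 E16 samples, Sox2-EGFPhigh+ replicate 2 and both Sox2-EGFP- replicates, say the opposite of their titles, and counts without these samples are given below. To compare lists of unequal length, the 7 lists of E14.5 and E16 were each reduced to the 22962 highest peaks by −log10 p, and each region was given the rank of its highest peak in each sample, with 1 the highest and 22963 where it had none. A region was counted as higher in a cell type where every sample of that type ranked it above every sample of the other, 4 samples against 3. The E12 samples were compared separately.

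The labelled cell types were described by the regions of marker genes in these reduced lists. From the same libraries the paper reports greater accessibility of Sox2 and Isl1 in Sox2-EGFPhigh+ cells. It reports the same of Coch, Tbx18 and Pou3f4 in Sox2-EGFP- cells. These markers are therefore no independent check. The 6 prosensory markers had 21 to 25 regions in the Sox2-EGFPhigh+ samples and 13 to 16 in the Sox2-EGFP- samples, with 2 to 4 regions of Sox2 in the latter and 5 to 8 in the former. Sox2, Isl1 and Fgf20 had more regions in every Sox2-EGFPhigh+ sample, as 7.59% of all genes did. Jag1, Prox1 and Hey2 overlapped between the types, and Jag1 had a mean of 3.00 regions against 3.33 in Sox2-EGFP-. The 8 otic fibroblast markers had 3 to 7 regions in Sox2-EGFPhigh+ and 24 to 26 in Sox2-EGFP-, and 7 of the 8 did not overlap between the types, where 4.89% of all genes had more regions in every Sox2-EGFP- sample. Of these, Col1a2 and Prrx1 had no region in any of the 4 Sox2-EGFPhigh+ samples. Markers of nonsensory duct epithelium moved less, with 2 to 4 regions against 4 to 7. Endothelial markers had 5 to 8 against 11 regions, macrophage markers 0 to 1 against 1 to 2 with Csf1r and Ptprc at 0 in all samples, glial markers 4 to 7 against 2, and melanocyte markers 7 to 10 against 5 to 7. By these totals the Sox2-EGFP- samples carried more regions of fibroblast and endothelial markers. The nonsensory duct epithelium markers were mixed. Otx2 and Bmp4 had more regions in all Sox2-EGFP- samples, Gata2 overlapped, and Oc90 had no region in any Sox2-EGFP- sample. Fewer cells of a type and less open chromatin per cell cannot be told apart in such samples, and the part that these cell types have in the values below was not tested.

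The genes were proposed because motifs of Grhl2 and Zeb1 differed between the same cell types, so differences between the types at these genes are given as a description, without a test. The design could not have gone below a two-sided exact permutation p of 0.0286 for any region. After Benjamini-Hochberg adjustment over all 38483 regions, 0 had an adjusted p under 0.05, and the smallest was 0.232. At an unadjusted p under 0.05 there were 4748 regions, 7 of them near the listed genes.

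Epithelial-gene regions stood more often in the Sox2-EGFPhigh+ lists, and in the lists of equal length mesenchymal-gene regions were slightly fewer there. In the reduced lists the E14.5 Sox2-EGFPhigh+ replicates had 23 and 19 epithelial-gene regions and the E16 replicates 22 and 21. The Sox2-EGFP- sample of E14.5 had 11, and those of E16 had 12 and 10, so that every Sox2-EGFPhigh+ sample lay above every Sox2-EGFP- sample. Mesenchymal-gene regions numbered 5 and 6 at E14.5 and 5 and 5 at E16 in Sox2-EGFPhigh+ cells, against 7 at E14.5 and 8 and 7 at E16 in Sox2-EGFP- cells, groups that were apart by a single region. The mesenchymal direction did not hold in the complete lists, where mesenchymal-gene peaks numbered 20, 7, 9 and 19 in the later Sox2-EGFPhigh+ samples and 7, 8 and 8 in the Sox2-EGFP- samples.

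**Figure D1:**
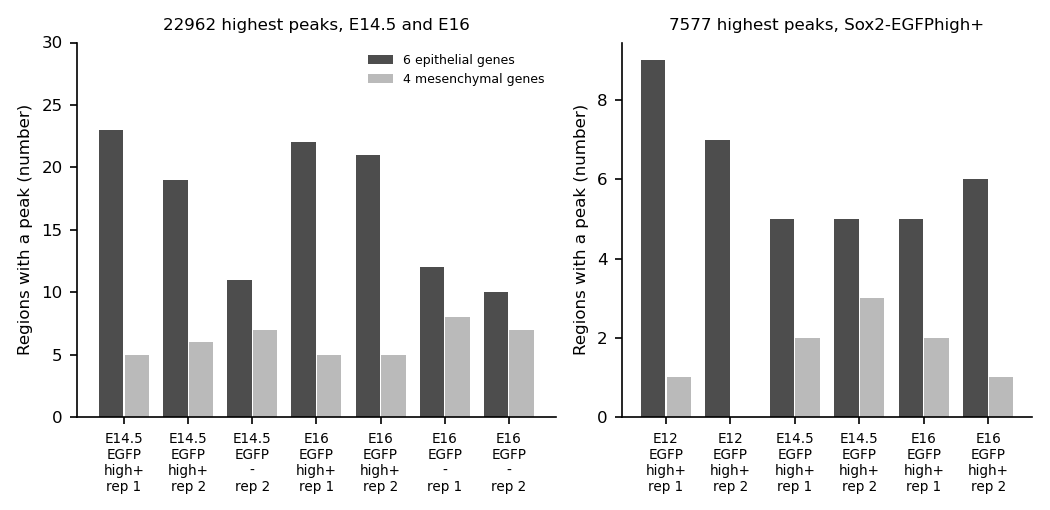
Number of regions (y axis) with a peak near the 6 epithelial genes (dark bars) and the 4 mesenchymal genes (light bars) in each sample (x axis), on the left among the 22962 highest peaks of the E14.5 and E16 samples and on the right among the 7577 highest peaks of all Sox2-EGFPhigh+ samples. Epithelial-gene regions number 19 to 23 in the Sox2-EGFPhigh+ and 10 to 12 in the Sox2-EGFP- samples on the left, and 7 to 9 at E12 against 5 to 6 later on the right.

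Region by region, 31 of the 45 epithelial-gene regions had a peak in the reduced lists. Of these, 10 ranked higher in all Sox2-EGFPhigh+ samples, where the share over all tested regions was 8.52%, and 2 ranked higher in all Sox2-EGFP- samples, against 10.7% over all regions. The median difference in log2 rank was 0.28 toward Sox2-EGFPhigh+, beside 0.02 over all regions. Of the 22 mesenchymal-gene regions 11 had a peak, of which 1 was higher in Sox2-EGFPhigh+ and 3 in Sox2-EGFP-, with a median of -0.27. Since the genes were chosen on this contrast, nothing is read from these shares. In the complete lists, 5 epithelial-gene regions had a peak in all 6 Sox2-EGFPhigh+ lists and in no Sox2-EGFP- list, which 0.794% of all regions did, and 2 mesenchymal-gene regions had a peak in all 3 Sox2-EGFP- lists and no Sox2-EGFPhigh+ list, which 2.34% of all regions did. A region without a Sox2-EGFP- peak was common: 65.5% of all regions had none, beside 47 of the 67 listed-gene regions (70.1%). The 2 longest lists, E14.5 Sox2-EGFPhigh+ replicate 1 and E16 Sox2-EGFPhigh+ replicate 2, were the only ones to hold 24 of the 67 (35.8%) and 35.4% of all regions.

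Counted per gene, Grhl2 and Esrp1 had more regions in every Sox2-EGFPhigh+ sample than in any Sox2-EGFP- sample, and so did Snai2. Such a gene-level difference was found for 7.59% of all 15515 genes with a region, and the opposite one for 4.89%, which here was Zeb2. Grhl2 had 9 and 7 regions at E14.5 and 7 and 8 at E16 in Sox2-EGFPhigh+ cells, a mean of 7.75 ± 0.957 (SD, n = 4), against 5, 5 and 3 in Sox2-EGFP- cells (4.33 ± 1.15, SD, n = 3). Esrp1 had 3 regions in each of the 4 Sox2-EGFPhigh+ samples and 0 in the 3 Sox2-EGFP- samples. Zeb2 had 1, 1, 0 and 1 regions in Sox2-EGFPhigh+ cells and 3, 4 and 3 in Sox2-EGFP- cells, a difference that was lost with regions limited to 100 kb, with complete lists, with all transcripts, with the 10000 highest peaks and over all 9 samples. The other 6 genes overlapped between the types.

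**Figure D2:**
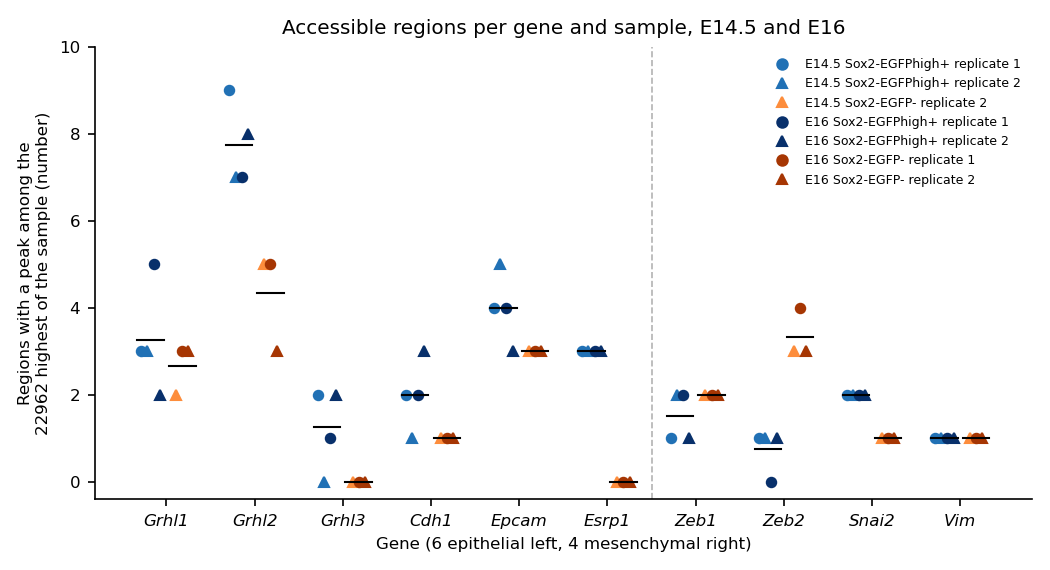
Number of regions per gene (x axis) with a peak among the 22962 highest peaks of each E14.5 and E16 sample (y axis), Sox2-EGFPhigh+ in blue at the left of each gene and Sox2-EGFP- in orange at the right, with symbols for the replicate and bars for the group means. The groups are apart for Grhl2, Esrp1 and Snai2 (more in Sox2-EGFPhigh+) and for Zeb2 (more in Sox2-EGFP-).

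Cdh1 encodes E-cadherin, the adhesion molecule of epithelial junctions, and its promoter showed the widest gap among the listed genes. The region covered chr8:109126986-109128255 with a summit 26 bp before the start site. Its rank was 814 and 1615 in the E12 lists, 726 and 2049 at E14.5 and 2811 and 1344 at E16 in Sox2-EGFPhigh+ cells, with fold enrichments between 6.02 and 11.9. No Sox2-EGFP- list had a peak there, so all 6 Sox2-EGFPhigh+ lists held it and the other lists did not, and the mean log2 rank differed by 3.90. Of the 3 other Cdh1 regions, all in introns, the one 16.2 kb into the gene had peaks in 3 lists of each type (difference -0.06).

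The sequence around the Cdh1 summit is shown because it carries E-boxes that Zeb and Snai factors are known to bind at this promoter. The letters are mm9, forward strand, 75 bp to each side of the summit, and capitals mark CAGGTG or CAGGTA on either strand (read as CACCTG or TACCTG on the other).

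Cdh1 promoter, chr8:109127150-109127300: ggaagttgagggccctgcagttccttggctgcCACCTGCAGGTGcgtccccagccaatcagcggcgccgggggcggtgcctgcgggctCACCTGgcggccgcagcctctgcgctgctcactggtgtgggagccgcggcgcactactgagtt

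The window held 3 copies of CAGGTG, at 43 to 38 and 37 to 32 bp before the summit and at 13 to 18 bp after it, and the first pair abutted on opposite strands. Over all 69354 regions, 14.9% had CAGGTG in such a window of 151 bp and 7.03% had CAGGTA.

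Esrp1, which encodes an RNA-binding protein that keeps epithelial splice forms, had no peak in any Sox2-EGFP- list. Its promoter (chr4:11313473-11314702, summit 177 bp before the start) ranked 6683 and 6279 at E12, 15502 and 7646 at E14.5 and 6489 and 12918 at E16. A region 1.40 kb before the start (chr4:11315015-11315686) ranked 12605 and 3023, 15977 and 5981, and 10459 and 22254 in the same order. An intronic region 13.9 kb into the gene (chr4:11280161-11280688) was absent at E12 and ranked 4532 and 16906 at E14.5 and 17514 and 13395 at E16. All 3 were thus higher in all later Sox2-EGFPhigh+ samples, with differences of 1.20, 0.91 and 0.99 in mean log2 rank, and the promoter and the region before it were in all 6 lists. The windows of the upstream and the intronic region each held an E-box, and are shown for comparison with Cdh1.

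Esrp1 1.40 kb upstream, chr4:11315250-11315400: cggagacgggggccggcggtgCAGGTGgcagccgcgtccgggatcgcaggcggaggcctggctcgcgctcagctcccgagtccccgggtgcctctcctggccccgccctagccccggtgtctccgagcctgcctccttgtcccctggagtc
Esrp1 intron, chr4:11280341-11280491: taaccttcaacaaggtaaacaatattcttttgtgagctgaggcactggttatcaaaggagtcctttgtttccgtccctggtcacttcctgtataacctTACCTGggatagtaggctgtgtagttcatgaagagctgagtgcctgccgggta

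Grhl2, the family member best known for holding the epithelial state, had the most regions, 17 in all. Of these, 12 had no Sox2-EGFP- peak, a share near that over all regions, and 5 of the 12 were in the 2 longest lists only. Its promoter (chr15:37161880-37163212, summit 24 bp before the start) ranked 4838 and 4763 at E12, 10243 and 8733 at E14.5 and 6850 and 6914 at E16, with no Sox2-EGFP- peak and a difference of 1.51. The region 34.9 kb upstream (chr15:37127653-37128456, intergenic) ranked 13076 in E12 replicate 1 and was absent from replicate 2, then ranked 3451 and 3379 at E14.5 and 3732 and 5186 at E16. It too was absent from all Sox2-EGFP- lists, and its difference of 2.57 was the second largest of the listed genes.

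Other Grhl2 regions differed less or not at all. The region 97.2 kb upstream ranked 9936, 11071, 11318 and 6651 in the later Sox2-EGFPhigh+ samples and 13046, 17990 and 15144 in Sox2-EGFP- (difference 0.68), so it was open in both types. Regions 46.8 kb upstream and 17.8 kb before the third start site, inside the gene, were in all later Sox2-EGFPhigh+ lists and no Sox2-EGFP- list (0.53 and 0.65). By contrast, the region 73.5 kb upstream had a peak in all 9 lists (-0.06), and the one 105 kb upstream was in 2 Sox2-EGFP- lists alone. The windows of the distal regions 34.9 and 97.2 kb upstream are shown, of which the first differed most among Grhl2 regions and the second was open in both types. In this report a window is shown only for a named region that was higher in 1 type and held a searched motif, and not every such window is shown. The region 46.8 kb upstream, for example, held CAGGTG and is not shown. An E-box in each shown window thus follows from this choice. Some other named regions higher in 1 type had none, so a missing window does not tell whether a region holds an E-box.

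Grhl2 34.9 kb upstream, chr15:37127814-37127964: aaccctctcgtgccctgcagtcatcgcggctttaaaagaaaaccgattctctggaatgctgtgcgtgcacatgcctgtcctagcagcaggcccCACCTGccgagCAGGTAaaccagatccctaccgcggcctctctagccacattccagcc
Grhl2 97.2 kb upstream, chr15:37065501-37065651: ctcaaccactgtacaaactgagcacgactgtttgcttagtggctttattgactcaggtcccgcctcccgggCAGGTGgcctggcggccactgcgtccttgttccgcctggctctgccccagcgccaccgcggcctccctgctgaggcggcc

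The region 34.9 kb upstream held 1 CAGGTG and 1 CAGGTA, 18 to 23 and 29 to 34 bp after its summit.

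**Figure D3:**
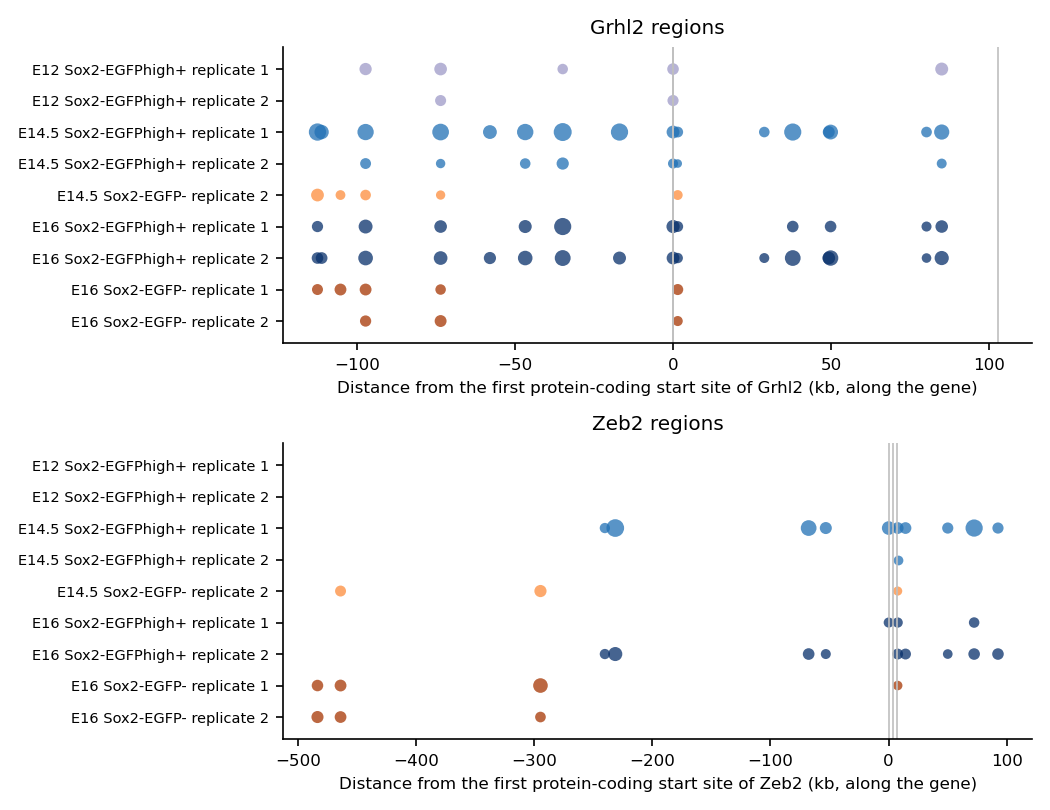
Regions near Grhl2 (top) and Zeb2 (bottom) in each of the 9 lists (rows), by distance from the first protein-coding start site (x axis, kb along the gene), with circle area in proportion to fold enrichment and grey lines at the start sites. Sox2-EGFP- peaks are missing from 12 of 17 Grhl2 regions and 9 of 13 Zeb2 regions, and the 3 most distant Zeb2 regions have Sox2-EGFP- peaks and no Sox2-EGFPhigh+ peak.

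Grhl1, a relative of Grhl2, had regions of each kind. Its promoter (chr12:25256579-25257655) was open in all 9 samples, with ranks of 1506, 2745, 291 and 740 in later Sox2-EGFPhigh+ cells and 2011, 814 and 1039 in Sox2-EGFP- cells, and the groups overlapped. A region 35.3 kb before Grhl1, in an intron of the neighbouring gene Taf1b (chr12:25221644-25222439), ranked 3429 and 6611 at E12, 4188 and 4659 at E14.5 and 13823 and 5533 at E16, was in no Sox2-EGFP- list, and differed by 1.89. An intronic region 20.3 kb into Grhl1 went the other way, with ranks of 15690, 12615 and 12901 in Sox2-EGFP- cells and the best Sox2-EGFPhigh+ rank at 16797 (-0.59).

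Grhl3, which is best known from the epidermis, had 3 regions, none with a Sox2-EGFP- peak. Its promoter ranked 9415 in E14.5 replicate 1, 29510 and 10785 at E16, and was absent from E14.5 replicate 2 and both E12 lists, so that the groups were not apart. The region 22.5 kb upstream was in the same 3 lists.

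Epcam, an adhesion molecule widely used to sort epithelial cells, was open in both types. The region over its start (summit 653 bp into the gene) ranked 9489, 10588, 7741 and 14088 in later Sox2-EGFPhigh+ cells and 15973, 11504 and 11455 in Sox2-EGFP- cells, which overlapped. Of its 9 regions 6 lacked Sox2-EGFP- peaks, about the share over all regions, and none of these was apart between the types. The region 64.2 kb upstream (chr17:87970909-87971224) was higher in Sox2-EGFP- cells, where it ranked 10591, 12372 and 8488, and the only Sox2-EGFPhigh+ sample to rank it within the reduced list was E16 replicate 1, at 14957.

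Zeb1 and Zeb2 encode zinc-finger repressors of epithelial genes, and their regions differed from each other. At Zeb1 the promoter ranked 9087 and 13812 in 2 of the 4 later Sox2-EGFPhigh+ samples, with the others at 29649 and 30422 in their complete lists, and 17204, 14596 and 9368 in Sox2-EGFP- cells. The region 226 kb after the start site ranked 5811, 7209, 3618 and 6079 in Sox2-EGFPhigh+ cells and 4935, 8052 and 4505 in Sox2-EGFP- cells (difference 0.03). Neither was apart between the types, and the other 3 Zeb1 regions were in the 2 longest lists only.

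At Zeb2, by contrast, the regions of the types lay in different places. A region 295 kb before the gene (chr2:45267275-45267725) ranked 6766 at E14.5 and 9779 and 18489 at E16 in Sox2-EGFP- cells, and a region 464 kb before it (chr2:45436613-45437177) ranked 14029, 19094 and 17627. No Sox2-EGFPhigh+ list held either, and the differences were -1.10 and -0.45. The Zeb2 region 689 bp from a start site ranked low in both types, at 19260 in E14.5 Sox2-EGFPhigh+ replicate 2 and 18621 and 21043 in 2 Sox2-EGFP- samples, and another 132 bp from a start site was in 2 Sox2-EGFPhigh+ lists at ranks of 44450 and 37393. Another 7 Zeb2 regions were in the 2 longest lists only, both Sox2-EGFPhigh+. At such distances the nearest start site need not be the gene that a region serves.

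Snai2 encodes Slug, a repressor of Cdh1, and its regions went both ways. Its promoter (chr16:14705228-14706169) was open in both types but ranked higher in Sox2-EGFP- cells, at 1980, 3196 and 1539, than in Sox2-EGFPhigh+ cells, at 5728, 4699, 9859 and 8806 (difference -1.70). A region 94.4 kb after the start site (chr16:14800117-14800742) was in 5 Sox2-EGFPhigh+ lists and no Sox2-EGFP- list, with ranks of 12787, 10237, 17600 and 10255 at E14.5 and E16 (0.89). The gene-level count of Snai2, 2 against 1, thus ran opposite to its promoter. The window of the distal region held CAGGTA.

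Snai2 94.4 kb region, chr16:14800289-14800439: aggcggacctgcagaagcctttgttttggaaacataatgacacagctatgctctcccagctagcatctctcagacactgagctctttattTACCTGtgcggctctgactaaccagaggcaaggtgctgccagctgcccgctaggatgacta

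Vim encodes vimentin, the intermediate filament of mesenchymal cells. The region over its start ranked 14329, 6554, 5154 and 13251 in Sox2-EGFPhigh+ cells and 7285, 4741 and 4224 in Sox2-EGFP- cells, which overlapped (difference -0.77).

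**Figure D4:**
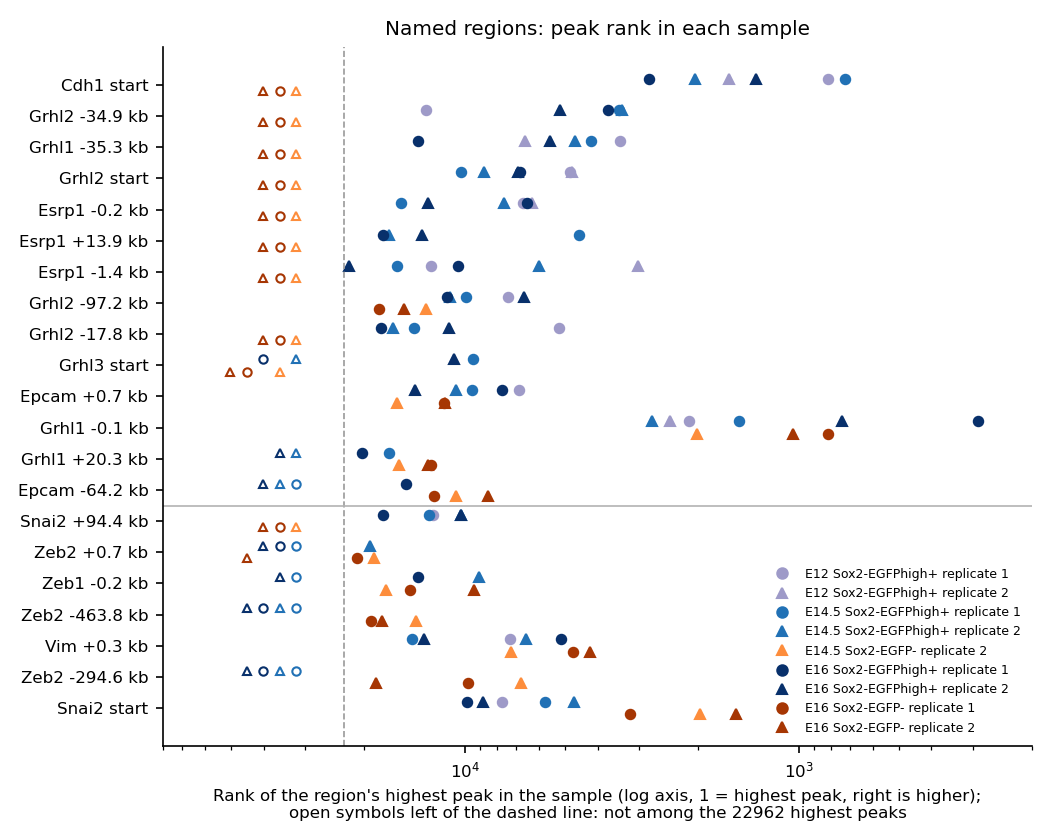
Rank of the highest peak (x axis, log scale, higher peaks to the right) of each named region (rows; epithelial genes above the grey line, mesenchymal below) in each sample, by color for stage and type and symbol for replicate; E12 ranks are within shorter lists, and open symbols mark E14.5 and E16 samples where the region is not among the 22962 highest peaks. The top 7 rows (the Cdh1 promoter, Grhl2 and Grhl1 distal regions, the Grhl2 promoter and 3 Esrp1 regions) have no Sox2-EGFP- symbol within the list.

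At E12 only Sox2-EGFPhigh+ cells were profiled, and their lists are the shortest, so a missing peak is not taken as closed chromatin. Among the 7577 highest peaks of each Sox2-EGFPhigh+ list, the epithelial genes had 9 and 7 regions at E12, 5 and 5 at E14.5 and 5 and 6 at E16, and the mesenchymal genes 1 and 0, 2 and 3, and 2 and 1. Of 15 listed-gene regions in these lists, 2 ranked higher in both E12 samples than in all 4 later ones, against 6.52% of all 13658 regions, and 2 ranked lower, against 7.62%. The higher ones were the Grhl2 promoter and the region 73.5 kb before Grhl2, which ranked 6861 and 6760 at E12 and 19865 to 22337 later. The lower ones were the Grhl2 region 34.9 kb upstream and the Zeb1 region at 226 kb. This comparison was made after the ranks were seen, and its smallest possible p was 0.0667, so no region was tested.

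Regions within 5 kb of the miR-200 hairpins had peaks in Sox2-EGFPhigh+ lists and none in Sox2-EGFP- lists, which also held for 65.5% of all regions as to Sox2-EGFP- peaks. Their nearest protein-coding genes were Ttll10 and Ptpn6. The 5 mature 3p strands, from RefSeq (GRCm38.p6), are shown with the seed, bases 2 to 8, in capitals, because the seed is the part that pairs with target messages. miR-200b, miR-200c and miR-429 share a seed, and miR-200a and miR-141 share the other.

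miR-200b-3p: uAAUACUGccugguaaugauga
miR-200c-3p: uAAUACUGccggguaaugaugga
miR-429-3p: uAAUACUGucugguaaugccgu
miR-200a-3p: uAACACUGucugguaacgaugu
miR-141-3p: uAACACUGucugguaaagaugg

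A region 4.11 kb before the Mir200b hairpin (chr4:155433374-155434330, mm9), at the cluster with Mir200a and Mir429, ranked 159 and 1159 at E12, 2290 and 729 at E14.5 and 1528 and 2764 at E16 in Sox2-EGFPhigh+ cells. It was in no Sox2-EGFP- list, and the difference in mean log2 rank was 3.82. A second region at the cluster, on the other side of the hairpins (chr4:155424621-155425174), was absent at E12, ranked 12711, 14477, 16563 and 24478 later and was in no Sox2-EGFP- list either, but the types were not apart there (0.50). At Mir200c and Mir141 the region 0.503 kb before the Mir200c hairpin (chr6:124668623-124669779) was in 5 Sox2-EGFPhigh+ lists, with ranks of 12623, 14056, 9098 and 26887 at E14.5 and E16, and in no Sox2-EGFP- list. The E16 replicate 2 rank lay outside the reduced list, so the types were not apart there.

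Further genes of the epithelial and mesenchymal states, none of them among the 10, were counted in the same way. The further mesenchymal genes that were apart all had more regions in Sox2-EGFP-, unlike the listed ones. Of those, Zeb2 and Snai2 were apart in opposite directions, and Zeb1 and Vim overlapped. Of 28 further epithelial genes with a region, 8 had more regions in all Sox2-EGFPhigh+ samples and 1 in all Sox2-EGFP- samples. Marveld3, a tight junction protein, had 2, 3, 3 and 1 regions against 0 in each Sox2-EGFP- sample. Cldn4, another tight junction protein, had 2 in each against 0, and the protease inhibitor Spint1 had 2, 1, 2 and 2 against 0. The exception was Lsr, of tricellular junctions, with 1 region in each Sox2-EGFPhigh+ sample and 2 in each Sox2-EGFP- sample. Of 25 further mesenchymal genes, 0 had more in Sox2-EGFPhigh+ and 10 more in Sox2-EGFP-, among them Col1a2 with 0 against 4, 4 and 3, Dcn with 1 against 5, 5 and 4, the matrix protein gene Tgfbi with 2, 3, 2 and 3 against 5, 6 and 6, and the mesenchymal regulator Prrx1 with 0 against 3. Col1a1, Col1a2, Prrx1, Twist1 and Pdgfra also stand among the otic fibroblast markers. Pdgfra was the fibroblast marker whose groups overlapped, and its promoter ranked 8834, 2041, 7859 and 4848 in later Sox2-EGFPhigh+ samples and 14702 and 18723 in the E16 Sox2-EGFP- samples, with no peak in the E14.5 Sox2-EGFP- sample; it is named for this after its values were seen. Over all genes the shares were those given above, 7.59% and 4.89%.

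Motif letters in the distal peaks, those of the 22962 highest with a summit over 1 kb from a start site, differed between the types across the genome, which is part of how the genes were proposed and is given as a description. AACCNGTT, a consensus of Grhl factors, lay within 75 bp of the summit in 1.66% to 2.11% of distal peaks of later Sox2-EGFPhigh+ samples and in 0.745% to 0.762% of Sox2-EGFP- samples. In the flanks the shares were 1.15% to 1.36% and 0.814% to 0.833%. The flanks were 1 window on each side, together as long as the summit window. Split in this way, they hold slightly fewer positions for a motif. CAGGTG lay in 17.0% to 17.7% against 6.81% to 7.83%, with flanks at 13.0% to 14.9% and 7.51% to 8.46%. CAGGTA, which differs from CAGGTG in the last letter alone, lay in 6.69% to 7.96% against 1.69% to 2.34%, with flanks at 6.73% to 7.20% and 3.27% to 3.46%. The flanks thus differed between the types too, and in Sox2-EGFP- peaks both E-boxes were scarcer at the summit than beside it. At the listed genes 13 of 45 epithelial-gene windows (28.9%) and 4 of 22 mesenchymal-gene windows (18.2%) held CAGGTG, beside 14.9% of all regions. For CAGGTA the classes were alike, with 6 of 45 (13.3%) and 3 of 22 (13.6%), beside 7.03% of all regions. The stricter Grhl palindrome AACCGGTT was in 0.173% of all regions and in no listed-gene window, and AACCNGTT, which contains it, in 1 of 45 epithelial-gene windows, 26.2 kb before Epcam, beside 1.46% of all regions. These letters are a match of sequence and not evidence of binding.

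**Figure D5:**
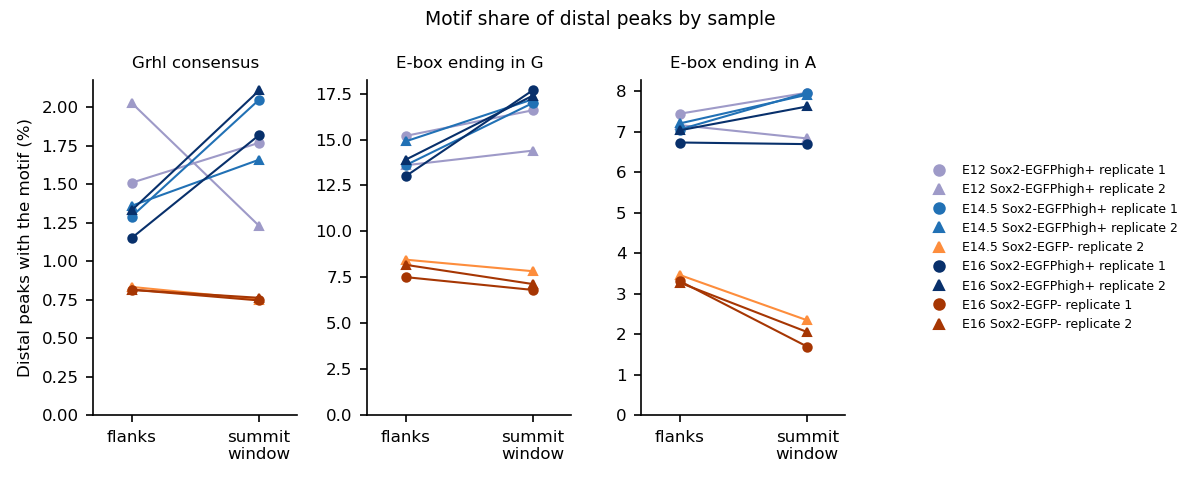
Share of distal peaks (y axis, %) with a Grhl consensus, the E-box ending in G or the E-box ending in A on either strand, in flanking windows and in the window of 75 bp to each side of the summit (x axis), one line per sample colored by stage and type. Summit shares of the later Sox2-EGFPhigh+ samples lie above those of the Sox2-EGFP- samples in all panels, and the E12 samples, with fewer distal peaks (4625 and 2122), have 1.77% and 1.23% for the Grhl consensus.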

How the data were processed

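Peak lists of 9 ATAC-seq samples were analysed, grouped by title. Per the methods, the authors used Trim Galore for trimming, Bowtie2 for alignment to mm9, and Picard and SAMtools to drop duplicate and mitochondrial reads; peaks were called in each sample with MACS2 and kept where replicated within a cell type. The deposited fold enrichment is a ratio of the summit signal to the local background, and the deposited −log10 p and −log10 q come from the authors' MACS2 runs. The lists hold no sequencing depth. The E16 replicates 1 of both types were sequenced in another batch than the rest.

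Start sites of protein-coding transcripts came from GENCODE for mm9, and 0 peaks lay past a chromosome's end. Regions were merged at 100 bp, a promoter region lay within 1 kb of a start site, and ranks were compared by two-sided exact permutation over 35 assignments, with Python 3.11.15, NumPy 2.4.6 and pandas 2.3.3; calls, merging and the motif search were tested on simulated data. A region missing from 1 sample of its higher type cannot be called. Sample pairs of the same stage and number were collected in parallel in some cases according to the methods. At E16 the pairs deviated together (r = 0.19 across 38483 regions). Both E16 replicates 1 were also sequenced in the other batch, so shared batch and shared collection cannot be told apart in this value. For each gene, promoter regions and up to 3 further called regions with the largest difference are named, and genes of further lists only where called, up to 4 for each direction; the Grhl2 region 46.8 kb upstream, the regions 73.5 and 105 kb upstream and the Grhl3 region 22.5 kb upstream were named after their values were seen. The members, lists and motifs were chosen with earlier results of these data known. The authors' tests of reads are not repeated, and some named items are not reported here.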

Additional observations from a re-analysis of the deposited data

Results flagged for a closer look

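In groups of 4 later Sox2-EGFPhigh+ samples, 3 of 32 groups examined held a sample far from the others. A nominal chance share of about 0.05 need not apply here, since the other values were tied in all 3. Zeb2 had 0 regions in E16 Sox2-EGFPhigh+ replicate 1 and 1 in each of the others. The region 64.2 kb before Epcam ranked 14957 in the same sample and was outside the 22962 highest peaks of the others. The Zeb2 region 689 bp from a start site ranked 19260 in E14.5 Sox2-EGFPhigh+ replicate 2 and was outside that list in the others. Both ranks stand beside samples set to a common last rank, which makes a lone sample stand out.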

How the results depend on the processing

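Epithelial-gene regions higher in Sox2-EGFPhigh+ numbered 10, and 2 with the 10000 highest peaks, 5 with a −log10 q of at least 5 and 1 over all 9 samples. The share of all regions fell too, from 8.52% to 4.96%, 6.64% and 1.58% in the same order. Leaving out each sample gave 10 to 12, beside 9.58% to 13.2% of all regions. Epithelial-gene regions higher in Sox2-EGFP- numbered 2, and 0 with 10000 peaks, 0 by fold enrichment, 1 with the q limit, 0 over all 9 samples and 5 without the 3 samples of contrary tag. The share of all regions was 10.7%, and 5.02%, 6.70%, 6.95%, 2.23% and 29.0% in the same order. Leaving out each sample gave 2 to 4, with 4 without E16 Sox2-EGFP- replicate 2, where the share of all regions rose too. The same shares stand beside the mesenchymal-gene counts in these settings. Mesenchymal-gene regions higher in Sox2-EGFPhigh+ numbered 1, and 0 with 10000 peaks, with the q limit, with all transcripts and over all 9 samples; leaving out each sample gave 1. Those higher in Sox2-EGFP- numbered 3, and 1 with 10000 peaks, the q limit, all transcripts, a limit of 100 kb or all 9 samples, and 5 at E16 alone, where the share of all regions was 24.3%; leaving out each sample gave 3 to 5, with 5 without E14.5 Sox2-EGFP- replicate 2, beside 16.8% of all regions. Epithelial genes with more regions in Sox2-EGFPhigh+ numbered 2, and 4 at E16 alone and without the contrary tags. Leaving out each sample gave 2 to 4, with 4 without E14.5 Sox2-EGFPhigh+ replicate 2. The share of all regions higher in Sox2-EGFPhigh+ rose too in these 3 settings, to 20.1%, 16.1% and 13.2%. Mesenchymal genes with more regions in Sox2-EGFP- numbered 1 (Zeb2), and 0 with 10000 peaks, complete lists, all transcripts, 100 kb or all 9 samples. The share over all genes is given for the main setting alone, so nothing is read from changes in these gene counts. Regions higher at E12 numbered 2, and 1 with 5000 peaks, and 2 to 5 leaving out each sample, with 4 and 5 without E12 replicate 1 or 2, beside 26.8% and 24.2% of all regions. Regions lower at E12 numbered 2, and 0 with 5000 peaks and 2 to 3 leaving out each sample. With complete lists they numbered 12, where the share of all regions rose from 7.62% to 12.9%. The E12 lists are the shortest, so nothing about the listed genes is read from this count. The cause was not tested.

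With the replicate block over 3 pairs the counts were 10, 2, 1, 3, 2 and 1 in the order above, as without it, while the shares of all regions rose from 8.52% to 12.2% for Sox2-EGFPhigh+ and from 10.7% to 17.0% for Sox2-EGFP-. Without the E16 replicate 1 libraries, the other sequencing batch, the region counts were 11, 2, 1 and 4, beside 12.7% and 18.9% of all regions. Without the samples of contrary tag, 3 samples against 1, they were 13, 5, 1 and 4, beside 16.1% and 29.0%; this alternative and those of E12 were chosen after seeing the data. Peak lists without reads limit every value: a region below a caller's threshold and a closed one look alike.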
